A study of Mus musculus with 8 samples.

Results

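The renin-angiotensin system genes are 9 genes of this dataset, taken by their symbols in the gene tables: Ren1, Agt, Ace, Agtr1a, Agtr1b, Mas1, Atp6ap2, Enpep and Mme. They were described among 32285 gene identifiers, of which 21286 are protein-coding, in single-nucleus RNA-seq of kidneys from 8 male mice. The mice were on a C57BL/6J background and were all Bmal1lox/lox, with lox sites on both sides of the deleted part of Arntl (the gene of BMAL1). From 8 weeks of age all of them drank water with 2 mg/ml doxycycline and 20 mg/ml sucrose for 2 weeks. Ctrl mice carried these alleles alone, while their cKOt littermates also carried Pax8-rtTA and LC-1, with which doxycycline turns on Cre under the Pax8 promoter, in renal tubules. Smooth muscle and mesangial cells, where Ren1, Agtr1a and Agtr1b were highest, are not the cells targeted by this system, and neither are vessel cells. After doxycycline came 2 weeks without treatment and then 2 weeks in boxes with set light cycles. Kidneys were then frozen at ZT4, in the light phase, or at ZT16, in the dark phase. Each of the 4 groups (Ctrl ZT4, cKOt ZT4, Ctrl ZT16, cKOt ZT16) held 2 mice, with 1 library per mouse.

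The renin-angiotensin system is a hormone cascade that controls blood pressure and salt balance. Renin, released from juxtaglomerular granular cells in the wall of the afferent arteriole, cuts angiotensinogen into angiotensin I, which angiotensin-converting enzyme turns into angiotensin II. Angiotensin II acts on type 1 receptors to constrict vessels, raise tubular sodium uptake and restrain renin release, and several membrane peptidases break the peptides down or form angiotensin-(1-7), the ligand of the Mas receptor. Mice of the C57BL/6J background carry one renin gene, Ren1, and, unlike humans, have a pair of type 1 receptor genes, Agtr1a and Agtr1b.

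After filtering, 81391 of 82784 barcodes were kept as nuclei, with 36548873 to 54500820 unique molecular identifiers (UMIs) per library. Clusters of nuclei were named from marker genes that did not include the 9 genes, and each name below means nuclei like that cell type. In all, 73158 nuclei (89.9%) fell into 34 named cell types. Levels are in CPM, the usual scaling of a gene's UMIs to the protein-coding UMIs of a cell type in a library, and they are given as mean ± SD over the 8 libraries. Since the clusters and the levels come from the same nuclei, levels across cell types are a description without a test. Any 2 libraries shared at most 0.42% of their barcodes. Arntl, the targeted gene, was counted at 39.2 and 33.1 CPM in Ctrl ZT4, 160 and 157 in Ctrl ZT16, 288 and 203 in cKOt ZT4 and 294 and 258 in cKOt ZT16. Its level was thus higher in all 4 cKOt libraries than in any Ctrl library, but tags read from the 3′ end of a transcript do not check the deletion of a part that lies elsewhere in the gene.

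Because the deleted factor, BMAL1, binds E-boxes (CACGTG) together with CLOCK, the 250 bases before the annotated starts of the members were read from RefSeq on GRCm38.p6. The table held 8 of the 9 genes, without Agtr1a. The genes at the head of the cascade are Ren1, with its promoter at chr1:133350424-133350673 (plus strand), and Agt, at chr8:124569707-124569956 (minus strand). The only member promoter with the E-box variant CACGTT was that of Atp6ap2 at chrX:12587509-12587758 (plus strand). These promoters read as follows, with the TATAAA or CACGTT motif in capitals.
Ren1: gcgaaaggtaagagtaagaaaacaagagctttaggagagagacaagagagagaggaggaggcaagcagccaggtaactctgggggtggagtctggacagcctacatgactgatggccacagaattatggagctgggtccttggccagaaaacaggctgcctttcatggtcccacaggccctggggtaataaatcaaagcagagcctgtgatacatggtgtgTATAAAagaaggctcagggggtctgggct
Agt: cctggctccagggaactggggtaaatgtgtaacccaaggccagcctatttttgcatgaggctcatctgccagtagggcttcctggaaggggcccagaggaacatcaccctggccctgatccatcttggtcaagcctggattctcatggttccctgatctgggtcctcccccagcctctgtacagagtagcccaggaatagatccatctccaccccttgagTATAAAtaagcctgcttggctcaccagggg
Atp6ap2: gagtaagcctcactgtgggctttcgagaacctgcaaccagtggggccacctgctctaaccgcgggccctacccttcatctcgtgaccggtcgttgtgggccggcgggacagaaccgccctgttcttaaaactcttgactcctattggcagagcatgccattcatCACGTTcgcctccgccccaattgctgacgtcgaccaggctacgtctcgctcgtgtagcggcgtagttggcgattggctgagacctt
Searched on both strands, CACGTG was found in none of the 11 windows of the 8 genes, where 6.02% of 32851 promoters of this length hold it. The variant CACGTT was found once, 86 bases before the Atp6ap2 start, and 3.85% of promoters hold it. Other E-box variants were not searched. TGACGTCA, the cAMP response element, was found in none, with a share of 1.55% of promoters. TATAAA lay 29 bases before the start of Ren1, 30 before Agt, 31 before Agtr1b, 31 before Ace (on the opposite strand) and 52 before Enpep (also on the opposite strand), whereas 12.4% of all promoters hold it anywhere in the window. These matches describe letters in a window and not binding.

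The cascade was spread over cell types that lie apart in the nephron, as the map of mean levels shows. Ren1 was highest in smooth muscle and juxtaglomerular granular cells (SMC/JGC), Agtr1a and Agtr1b in mesangial cells (Mes), Enpep in podocytes (Podo), Mme and Atp6ap2 in intercalated cells (aIC and bIC), Ace and Mas1 in the proximal tubule, and Agt in a class of thin descending limb nuclei. These first places were the same without doublet-called nuclei and at a finer clustering. At a coarser clustering the mesangial nuclei merged with SMC/JGC, which then led for Agtr1a (840 CPM) and Agtr1b (42.2 CPM).

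**Figure D1:**
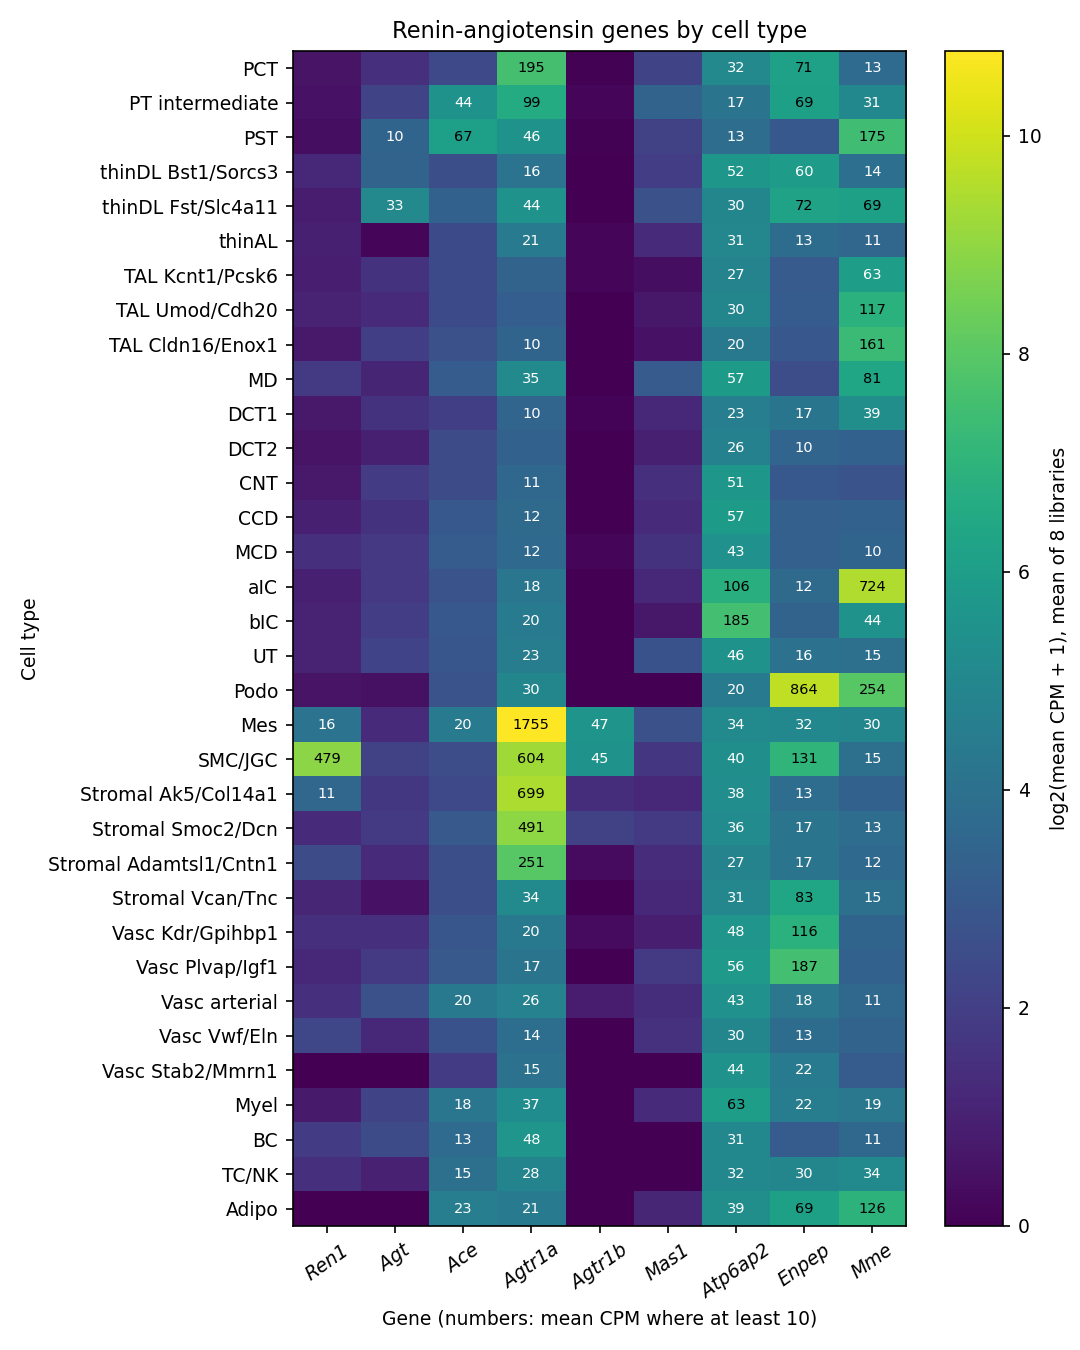
Mean level of the 9 genes (columns) in 34 named cell types (rows), as log2(mean CPM + 1) over 8 libraries by colour, with the mean CPM printed where it is at least 10. Ren1 stands out in SMC/JGC (479), Agtr1a in Mes (1755), Enpep in Podo (864) and Mme in aIC (724), while Atp6ap2 was found in every row.

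Ren1, which encodes renin, was counted at 516 and 271 CPM in the SMC/JGC nuclei of Ctrl ZT4, 778 and 693 in cKOt ZT4, 557 and 202 in Ctrl ZT16, and 527 and 285 in cKOt ZT16. The 2 cKOt ZT4 libraries were the highest of the 8, and replicates of the other 3 groups lay far apart, so that these groups overlapped. The mean was 479 ± 208 CPM (SD, n = 8), and its range of 202 to 778 did not overlap that of the next cell type, Mes, at 16.2 ± 23.5 CPM from only 8 UMIs. SMC/JGC nuclei, 0.635% of all nuclei, held 635 of the 1036 Ren1 UMIs (61.3%). The class was named from smooth muscle and renin cell markers: Myh11, a smooth muscle myosin, was counted at 1028 CPM against 4.55 in the other named nuclei, and Akr1b7, an aldo-keto reductase known as a renin cell marker, at 58.1 against 0.152 CPM.

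Within SMC/JGC, Ren1 was held by few nuclei. A Ren1 UMI was found in 93 of 517 nuclei (18.0%), between 10.0% and 38.0% per library, at a median depth of 2540 UMIs per nucleus. Proximal convoluted tubule (PCT) nuclei had one in 0 to 0.39% of nuclei per library at a median depth of 4511 UMIs. Whether these UMIs were made there or were stray was not tested. The 17 nuclei of the class with at least 10 Ren1 UMIs held 54.3% of its Ren1 UMIs, and the highest nucleus held 48. The 57 nuclei with at least 3 Ren1 UMIs and the 424 with none were then set side by side. Akr1b7 was at 240 and 17.4 CPM, and Gja5 (connexin 40, a gap junction protein of renin cells) at 175 and 4.8 CPM, respectively. Gja4 and Rgs5, also on the list of renin cell genes tested below, were lower in the first set. Gja4 was at 10.9 CPM from 2 UMIs and 20.3 CPM from 21 UMIs, and Rgs5 at 295 and 415 CPM. The smooth muscle genes Myh11 (715 and 1078 CPM) and Acta2 (224 and 450 CPM) were at lower pooled levels in the first set. Over libraries, Myh11 ranged from 269 to 2808 CPM in the first set and from 716 to 1568 CPM in the second. Agtr1a was at 797 and 562 CPM in these 2 sets, and Agtr1b at 10.9 CPM from 2 UMIs and 52.1 CPM from 54 UMIs. These are pooled values without a test, and the split used Ren1 itself. For each of these genes the ranges over libraries overlapped between the 2 sets. Median depth was 3295 UMIs per nucleus in the first set and 2469 in the second.

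**Figure D2:**
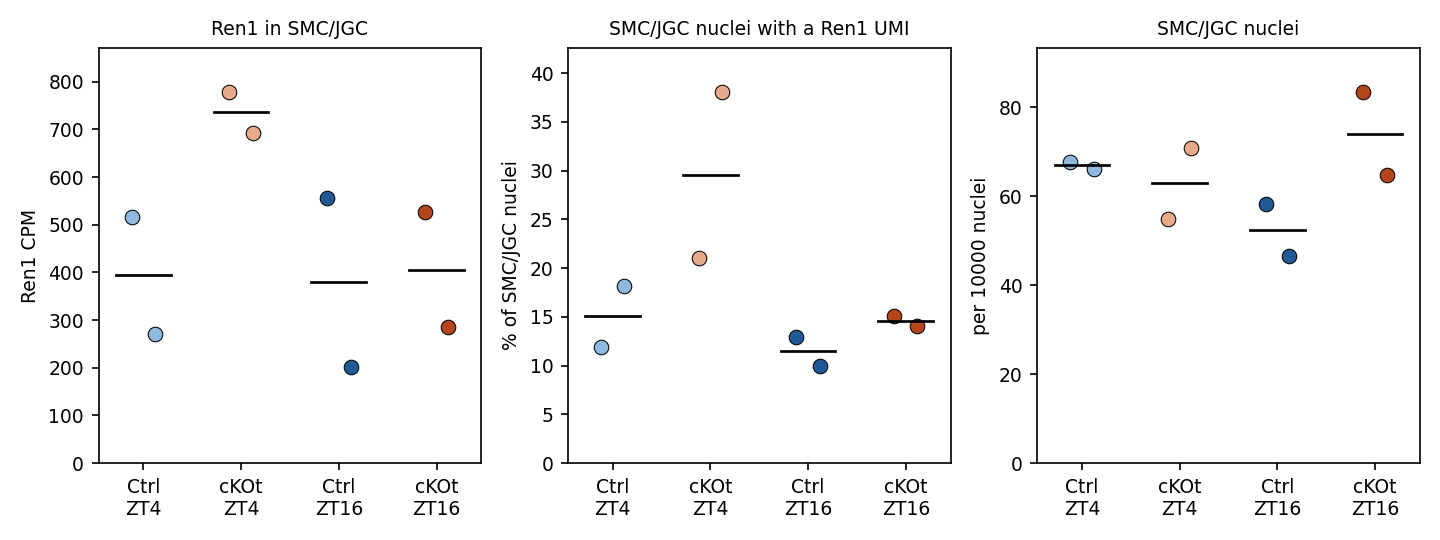
Ren1 in SMC/JGC in each library by group (left, CPM), the percentage of SMC/JGC nuclei with a Ren1 UMI (middle) and SMC/JGC nuclei per 10000 nuclei (right); points are libraries and bars group means. The cKOt ZT4 libraries lie above the other 6 in Ren1 level (778 and 693 CPM) and in the percentage of nuclei with a UMI (21.1 and 38.0), while in the right panel Ctrl ZT16 (58.2 and 46.6) lies below Ctrl ZT4 and cKOt ZT16, and cKOt ZT4 overlaps the other groups.

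Whether Ren1 differed between genotypes or times was tested in SMC/JGC with edgeR (quasi-likelihood, Benjamini-Hochberg over all genes of the class). Ren1 was not called in any contrast. Its log2 fold change was 0.49 ± 0.26 (SE) for cKOt minus Ctrl averaged over time points (adjusted p = 0.979) and −0.43 ± 0.26 for ZT16 minus ZT4 averaged over genotypes (adjusted p = 0.792). With 1 library left out, the difference between genotypes ranged from 0.21 (without cKOt ZT16 replicate 1) to 0.95 (without Ctrl ZT16 replicate 1) and that between times from −0.89 to −0.16, and neither was called. At ZT4 alone, Ren1 was 0.90 ± 0.37 higher in cKOt on the log2 scale (unadjusted p = 0.0247, adjusted p = 0.844). These levels rest on few nuclei. At ZT4, 1 nucleus in each Ctrl library and 3 in each cKOt library had at least 10 Ren1 UMIs. They held 49.3% and 19.6% of the Ren1 UMIs of the class in Ctrl, and 68.8% and 25.0% in cKOt. Whether more nuclei with Ren1 or more Ren1 per nucleus made the difference was not tested. Few genes were called in this class: of all genes tested, 0.035% for ZT16 minus ZT4 in Ctrl, 0.0481% in cKOt and 0.0298% over both genotypes, and for genotype 0.0351% at ZT4, 0% at ZT16 and 0.0149% over both times, with 0% for the interaction. Of 14 genes of renin cells and renin control (among them Akr1b7, Gja5, the beta-adrenergic receptor Adrb1, adenylyl cyclases and phosphodiesterases), 9 or 10 passed the count filter depending on the contrast, and none was called by edgeR or DESeq2 (0 to 2 per contrast were under an unadjusted p of 0.05 in edgeR, as were 4.51% to 6.97% of all genes of the class, and DESeq2 called 0 to 0.035% of them).

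The shares of SMC/JGC nuclei, most of which had no Ren1 UMI, and of nuclei with many Ren1 UMIs were compared as well. SMC/JGC nuclei made up 64.1 ± 11.1 per 10000 nuclei (SD, n = 8, range 46.6 to 83.4). Their share differed by 8.79 per 10000 between cKOt and Ctrl (exact permutation test, two-sided, 4 against 4 libraries, p = 0.343), or 3.82 (without cKOt ZT16 replicate 1) to 13.3 (without cKOt ZT4 replicate 1) with 1 library left out, and by −1.71 between ZT16 and ZT4 (exact p = 0.886). Over all cell types, 18 nuclei held at least 10 Ren1 UMIs and are called Ren1-rich. They came to 1, 1, 3 and 3 in Ctrl and cKOt at ZT4, and 3, 1, 5 and 1 in Ctrl and cKOt at ZT16. Their share per 10000 differed by 1.69 between genotypes (exact p = 0.200) and by 0.618 between times (exact p = 0.886). With 1 library left out the difference between genotypes was 0.825 (without cKOt ZT16 replicate 1, which held 5 of these nuclei) to 2.42, and with a limit of 20 UMIs it was 0.661, or −0.401 without that library. The smallest p this design allows is 0.0286.

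Agt encodes angiotensinogen, the substrate of renin, which the liver and also the proximal tubule are known to make. Its highest level, 33.1 ± 15.1 CPM (range 12.6 to 49.9), was in thin descending limb nuclei marked by Fst and Slc4a11 (thinDL Fst/Slc4a11), followed by the proximal straight tubule (PST) at 10.3 ± 3.89 CPM, whose range of 4.35 to 17.0 overlapped it. Thin descending limb nuclei with Bst1 and Sorcs3 followed at 9.64 ± 6.32 CPM. Doublet calls took 19.1% of the thinDL Fst/Slc4a11 nuclei, and without them the level was 44.5 CPM. Of the markers that named this class, Aqp1, Bst1, Fst, Lypd2 and Slc4a11 were higher than in other named nuclei. Slc14a2 was lower, at 44.7 against 367 CPM. By share of nuclei, an Agt UMI was found in 13.3% of thinDL Fst/Slc4a11, 6.16% of PST, 2.03% of PT intermediate and 0.76% of PCT nuclei. The share was 0.187% in podocytes and 0.0578% in thin ascending limb nuclei. PT intermediate is a class with its highest marker score for PST (1.84, and −0.11 for PCT). It was set apart from PST by low Cyp7b1, at 65.3 CPM against 801 in other named nuclei. Because the PST class is larger, it held 221 of the 1020 Agt UMIs and thinDL Fst/Slc4a11 held 77.

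Ace encodes angiotensin-converting enzyme, a brush border enzyme in the kidney. Its mean level was lowest in the first part of the proximal tubule and highest in the last: 4.18 ± 0.885 CPM in PCT, 44.3 ± 6.8 in PT intermediate and 66.6 ± 17.3 in PST. The range in PCT (2.92 to 5.8) did not overlap those of the other classes, while PT intermediate (34.7 to 52.0) and PST (36.4 to 90.7) overlapped. PCT was at the level of thick ascending limb nuclei, for example 4.38 ± 2.4 CPM in TAL Umod/Cdh20. PT intermediate and PST together with PCT held 34.2%, 28.1% and 4.42% of all Ace UMIs. In arterial endothelium Ace stood at 19.5 ± 11.5 CPM, from 43 UMIs.

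Agtr1a encodes the main angiotensin II type 1 receptor. It reached 1755 ± 311 CPM in mesangial cells (range 1426 to 2219), which did not overlap the next class, and 91.1% of the 168 mesangial nuclei had a UMI. The class was named from Piezo2, Itga8, Gata3, Pdgfrb, Serpine2 and Des, of which Piezo2 was at 2084 CPM against 50.1 in other nuclei. Stromal Ak5/Col14a1 nuclei (699 ± 81.3 CPM) and SMC/JGC (604 ± 127) overlapped each other, and stromal Smoc2/Dcn nuclei (491 ± 112) overlapped SMC/JGC. Stromal Adamtsl1/Cntn1 nuclei were lower, at 251 ± 32.6 CPM. Among the named proximal tubule classes the levels of Agtr1a formed steps without overlap: 195 ± 39.0 CPM in PCT (132 to 271), 99.0 ± 15.9 in PT intermediate (74.0 to 118) and 45.8 ± 12.1 in PST (27.8 to 59.5). The place of PT intermediate along the tubule was not tested. A cluster of 2731 nuclei that was left unnamed, with its highest marker scores for PST and PCT, had 138 CPM (112 to 174) and overlapped PCT and PT intermediate, so the steps hold for the named classes only. PCT nuclei held 30.4% of all Agtr1a UMIs. Macula densa nuclei (MD) stood at 34.6 ± 19.3 CPM and TAL Umod/Cdh20 at 8.36 ± 4.35, the lowest of all.

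Agtr1b, the other type 1 receptor gene, was counted only 143 times in all libraries. It stood at 46.7 ± 25.1 CPM in mesangial cells and 45.1 ± 32.7 in SMC/JGC, which overlapped, and no library was above 10 CPM in any other cell type. PCT, with 10440 Agtr1a UMIs, held 2 Agtr1b UMIs. Since the coding parts of both genes are nearly alike, reads shared by both could have been lost or moved between them, and the levels of both are uncertain to that extent.

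Mas1 encodes the receptor for angiotensin-(1-7). It was at 9.74 ± 2.45 CPM in PT intermediate (range 6.4 to 14.0), 3.62 ± 0.846 in PCT and 3.19 ± 1.51 in PST, and the last 2 classes overlapped each other and did not reach PT intermediate. TAL Kcnt1/Pcsk6 nuclei had 0.322 ± 0.43 CPM. MD came out second at 7.6 ± 13.0 CPM, but from 4 UMIs in 3 libraries. PT intermediate held 35.2% of the 1100 Mas1 UMIs.

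Atp6ap2, the (pro)renin receptor, is also an accessory subunit of the vacuolar proton pump, which intercalated cells use to move protons. Like Ace, Agtr1a, Enpep and Mme, it had a UMI in all 34 named cell types, and it was highest in intercalated cells. Type B cells (bIC) had 185 ± 29.1 CPM (range 146 to 230), above type A cells (aIC) at 106 ± 12.8 CPM (81.7 to 120) without overlap. Myeloid cells (63.4 ± 15.7 CPM) overlapped aIC at the highest library. The lowest level was in PST, at 13.4 ± 2.9 CPM, compared with 32.2 ± 6.63 CPM in PCT.

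Enpep encodes aminopeptidase A, which removes the first residue of angiotensin II. It reached 864 ± 107 CPM in podocytes (range 657 to 995), with a UMI in 88.2% of 535 nuclei, and did not overlap the next classes, endothelium marked by Plvap and Igf1 (187 ± 24.9) and SMC/JGC (131 ± 35.8). Podocytes were marked by Nphs1, a slit diaphragm gene, at 2460 CPM. In the proximal tubule PCT (71.4 ± 15.7 CPM) and PT intermediate (69.5 ± 26.9) overlapped, whereas PST, at 6.8 ± 2.09 CPM (5.03 to 10.1), was at the level of TAL Cldn16/Enox1 (6.7 ± 2.35).

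Mme encodes neprilysin, which degrades angiotensin peptides and forms angiotensin-(1-7) from angiotensin I. It was highest in aIC, at 724 ± 137 CPM (range 526 to 887), where 74.0% of nuclei had a UMI, and bIC had 44.0 ± 19.9 CPM. Podocytes followed at 254 ± 17.8 CPM (229 to 276) without overlap. PST followed at 175 ± 117 CPM, and was the most uneven of these classes: its libraries held 108 and 328 CPM in Ctrl ZT4, 61.9 and 381 in cKOt ZT4, 190 and 115 in Ctrl ZT16, and 86.5 and 131 in cKOt ZT16. One library of each genotype at ZT4 was high and the other low, so the groups overlapped. PCT (12.6 ± 6.96 CPM) and PT intermediate (31.2 ± 20.8) were lower than PST on average.

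**Figure D3:**
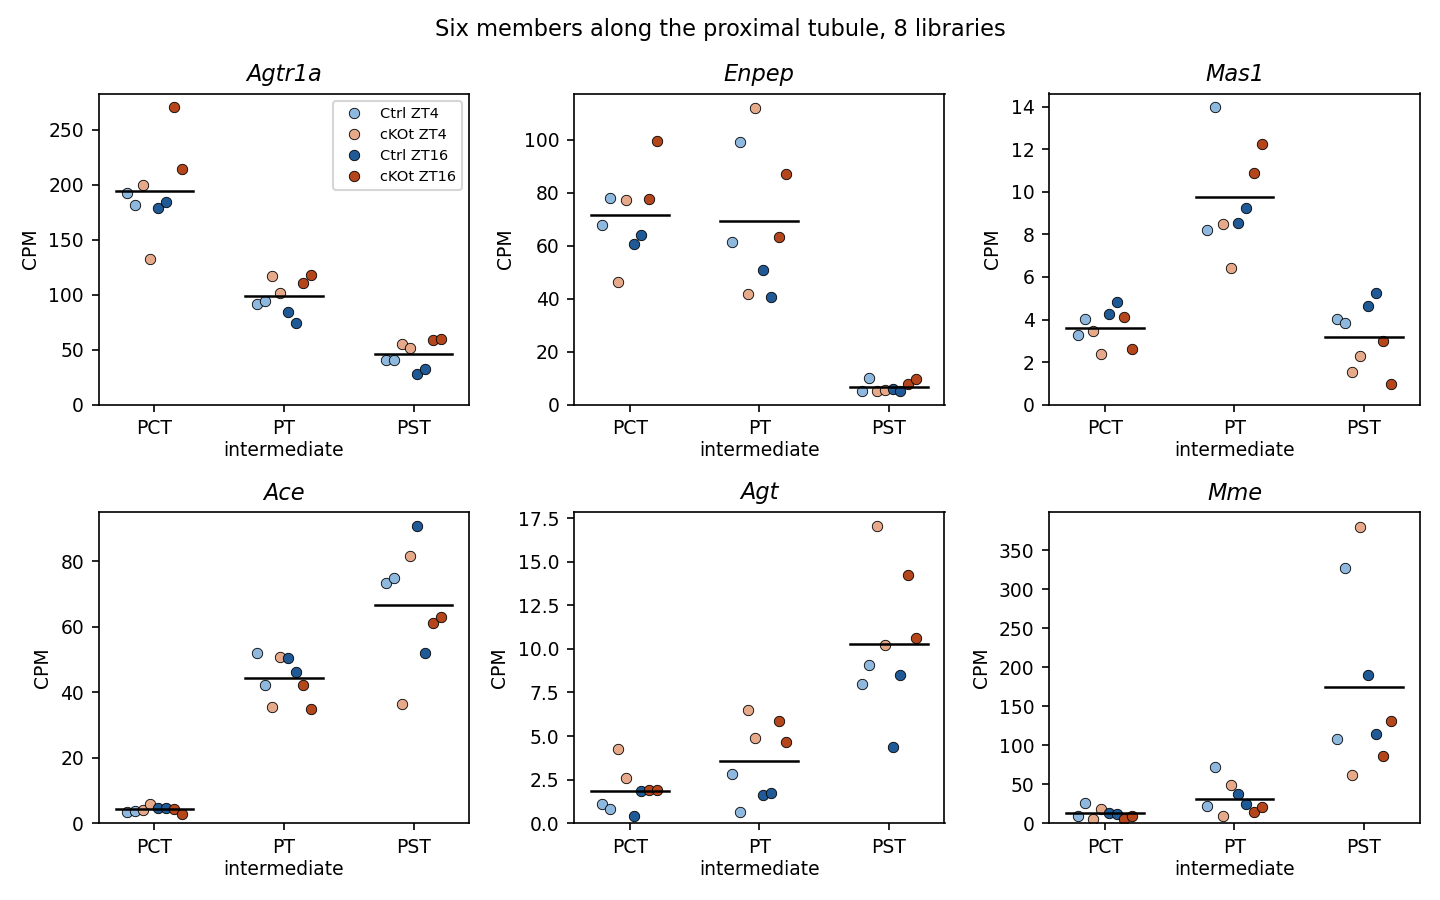
Levels of 6 genes (CPM, 8 libraries each, coloured by group, bars at the mean) in PCT, PT intermediate and PST. Agtr1a was at 195, 99.0 and 45.8 CPM with no overlap between these named classes, Ace was lowest in PCT, and Mas1 was highest in PT intermediate.

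The members were compared with all protein-coding genes by the Pearson correlation of log2(CPM + 1) over the 34 cell types, which share libraries and depth, and the closest genes, up to 3, are given for each. Ren1 was closest to Higd1b (r = 0.92), Rgs4 (0.88) and Ndst3 (0.88), and Agtr1b to Trpc6 (0.97), Stac (0.93) and Sfrp2 (0.93). Agtr1a was closest to Trpc1 (0.89), Kcnb2 (0.87) and Abcc9 (0.86). Ace was closest to the meprin genes Mep1a (0.90) and Mep1b (0.89), which are brush border proteases, and to Acsm3 (0.89). Atp6ap2 was closest to Klkb1 (0.82), Pgrmc1 (0.77) and Foxi1 (0.77), the last an intercalated cell transcription factor. Enpep was closest to Clic5 (0.74), Tmem108 (0.72) and Npr3 (0.70). Weaker likeness was found for Agt with Zbed3 (0.70) and Hs6st2 (0.69), for Mas1 with Elovl2 (0.71), Reep6 (0.67) and Khk (0.66), and for Mme with Aldh1l1 (0.67), Pank1 (0.64) and Plch1 (0.63).

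The question of whether the clock in tubules or the time of day changes the cascade was addressed with UMIs summed over all nuclei of each library. In such sums, more nuclei of a type and more RNA per nucleus cannot be told apart. None of the 9 genes passed an adjusted p of 0.05 in any of 7 contrasts (edgeR, quasi-likelihood). Among all protein-coding genes tested, the share called was 0.142% for ZT16 minus ZT4 in Ctrl, 0% in cKOt and 0.544% averaged over genotypes. It was 0.446% for cKOt minus Ctrl at ZT4, 0.174% at ZT16, 0.948% averaged over times and 0.0183% for the interaction. At an unadjusted p of 0.05, 1 member was past the limit for genotype at ZT4, 3 at ZT16 and 1 over both times, 2 for time in cKOt and 2 for the interaction, and 0 for time in Ctrl or over both genotypes. Of all genes, 8.87%, 6.1%, 10.0%, 8.32%, 4.35%, 9.95% and 13.7% were past this limit, in the same order. The median log2 fold change over the 9 genes was 0.16 for cKOt minus Ctrl and −0.04 for ZT16 minus ZT4.

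Agt came nearest to the limit. Its level over all nuclei was 1.93 and 2.33 CPM in Ctrl ZT4, 2.14 and 2.68 in Ctrl ZT16, 4.37 and 4.60 in cKOt ZT4, and 4.79 and 3.02 in cKOt ZT16. All 4 cKOt libraries lay above all 4 Ctrl libraries. The log2 fold change of cKOt minus Ctrl averaged over times was 0.92 ± 0.19 (SE), with an unadjusted p of 0.00116 and an adjusted p of 0.0806 in edgeR, and DESeq2 called Agt in this contrast (adjusted p = 0.0038) and at ZT4 (adjusted p = 0.0352). DESeq2 called 2.63% of genes over both times and 2.16% at ZT4. By time point, edgeR gave 1.10 ± 0.28 at ZT4 (adjusted p = 0.177) and 0.74 ± 0.27 at ZT16 (adjusted p = 0.699), where it was 0.39 without cKOt ZT16 replicate 1, and the interaction was −0.35 ± 0.39. Between ZT16 and ZT4 the change was −0.01 ± 0.19.

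The same direction of Agt was seen in the proximal tubule classes. In PT intermediate it was counted at 2.81 and 0.657 CPM in Ctrl ZT4, 1.6 and 1.72 in Ctrl ZT16, 6.48 and 4.90 in cKOt ZT4, and 5.84 and 4.65 in cKOt ZT16. The genotypes did not overlap, and the log2 fold change was 1.72 ± 0.37 (adjusted p = 0.0552 in edgeR, 0.0171 in DESeq2), where edgeR called 1.98% of the genes of the class. Without Ctrl ZT4 replicate 1, the Ctrl library with the highest Agt level there, it was 2.33 (adjusted p = 0.0214), and with any other library left out the adjusted p was 0.0705 to 0.194. In PST the log2 fold change was 0.84 ± 0.29 (adjusted p = 0.239), in PCT 1.41 ± 0.45 (adjusted p = 0.243), and in thinDL Fst/Slc4a11, where Agt was highest, −0.32 ± 0.43 (adjusted p = 0.934). With 1 library left out the change in PCT was 0.93 to 2.06 and that in thinDL Fst/Slc4a11 −0.89 to −0.025. Of the 8 cell types in which Agt could be tested, 6 had a higher fitted level in cKOt. A cell type could pass the count filter through 1 group alone, and all share the same libraries, so this count is a description only. Liver transcripts (Alb, Ahsg, Mug1, Mup20 and Mup3) gave 229 UMIs in Ctrl ZT4 replicate 2 and 3 to 21 in the other libraries, and the nuclei that held them carried 2 of the 97 Agt UMIs of that library and 0 elsewhere. Adipocyte-like nuclei (25 and 41 of the 76 in all came from the cKOt ZT4 libraries) held 0 Agt UMIs.

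**Figure D4:**
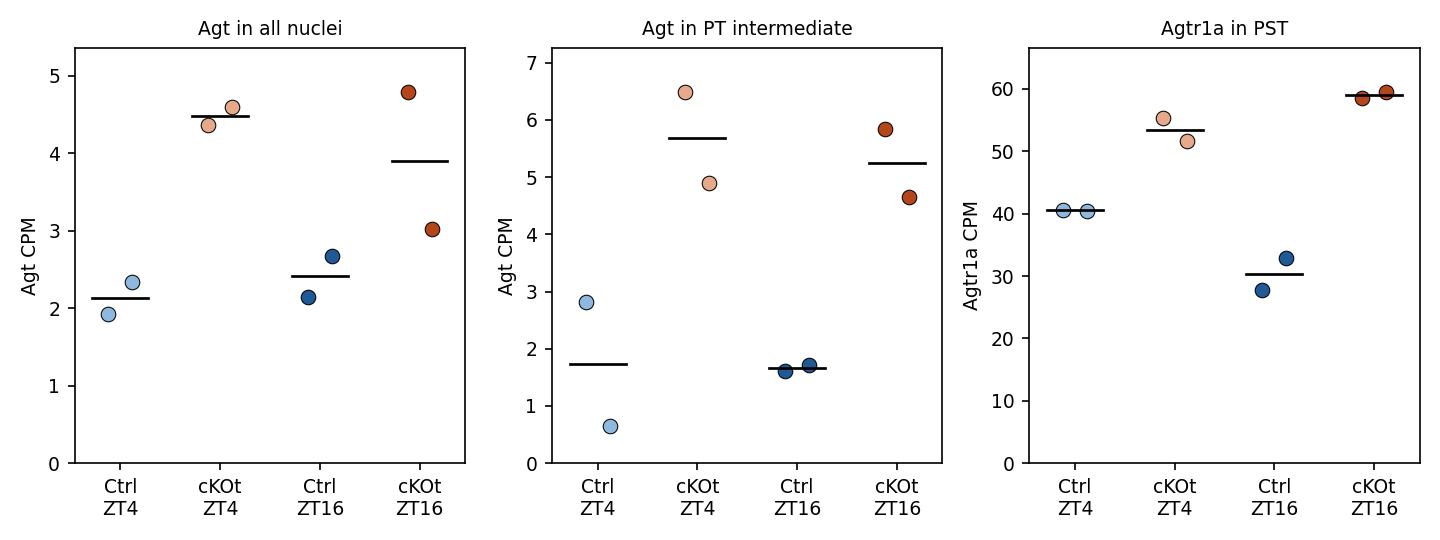
Agt over all nuclei (left) and in PT intermediate (middle), and Agtr1a in PST (right), in CPM per library (points) with group means (bars). In each panel all 4 cKOt libraries lie above all 4 Ctrl libraries.

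Ren1 over all nuclei was counted at 3.25 and 2.41 CPM in Ctrl ZT4, 3.55 and 4.65 in cKOt ZT4, 3.98 and 1.43 in Ctrl ZT16, and 4.79 and 2.07 in cKOt ZT16. The genotypes overlapped at ZT16, and the log2 fold change of cKOt minus Ctrl was 0.48 ± 0.34 (adjusted p = 0.715), and 0.13 to 0.92 with 1 library left out. Between ZT16 and ZT4 it was −0.16 ± 0.34 (adjusted p = 0.888).

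The receptors did not pass the limit over all nuclei. Agtr1a was at 103 and 105 CPM in Ctrl ZT4, 110 and 80.3 in cKOt ZT4, 103 and 98.9 in Ctrl ZT16, and 149 and 129 in cKOt ZT16. Both cKOt ZT16 libraries were above the other 6. Its log2 fold change between genotypes was 0.51 ± 0.16 at ZT16 (unadjusted p = 0.0125, adjusted p = 0.570) and −0.09 ± 0.16 at ZT4, and the interaction of Agtr1a was 0.60 ± 0.23 (unadjusted p = 0.0287, adjusted p = 1.000). Agtr1b lay between 0.225 and 0.742 CPM, with an interaction of 1.54 ± 0.62 (unadjusted p = 0.0366, adjusted p = 1.000). Mas1 lay between 2.7 and 4.21 CPM and changed by −0.15 ± 0.15 between genotypes. Atp6ap2 lay between 31.5 and 38.8 CPM, with 0.16 ± 0.09 between genotypes and −0.04 ± 0.09 between times, the smallest standard errors of the set.

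Of the peptidases, Mme had the largest standard error. Over all nuclei Mme was counted at 41.4 and 87.8 CPM in Ctrl ZT4, 31.2 and 73.2 in cKOt ZT4, 57.5 and 52.7 in Ctrl ZT16, and 34.6 and 43.3 in cKOt ZT16. The ZT4 replicates differed by more than the groups, and the log2 fold change was −0.37 ± 0.29 between genotypes (adjusted p = 0.745, −0.72 to −0.037 with 1 library left out) and −0.32 ± 0.29 between times (adjusted p = 0.684). Enpep lay between 38.8 and 67.8 CPM (0.26 ± 0.17 between genotypes, adjusted p = 0.691), and at ZT16 it was 0.56 ± 0.24 higher in cKOt (unadjusted p = 0.0437, adjusted p = 0.786). Ace lay between 11.8 and 19.8 CPM (−0.15 ± 0.16 between genotypes, adjusted p = 0.812, and −0.07 ± 0.16 between times). With 1 library left out, the differences between genotypes were 0.060 to 0.42 for Enpep, −0.30 to −0.036 for Ace, −0.25 to −0.052 for Mas1 and 0.071 to 0.32 for Agtr1a.

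**Figure D5:**
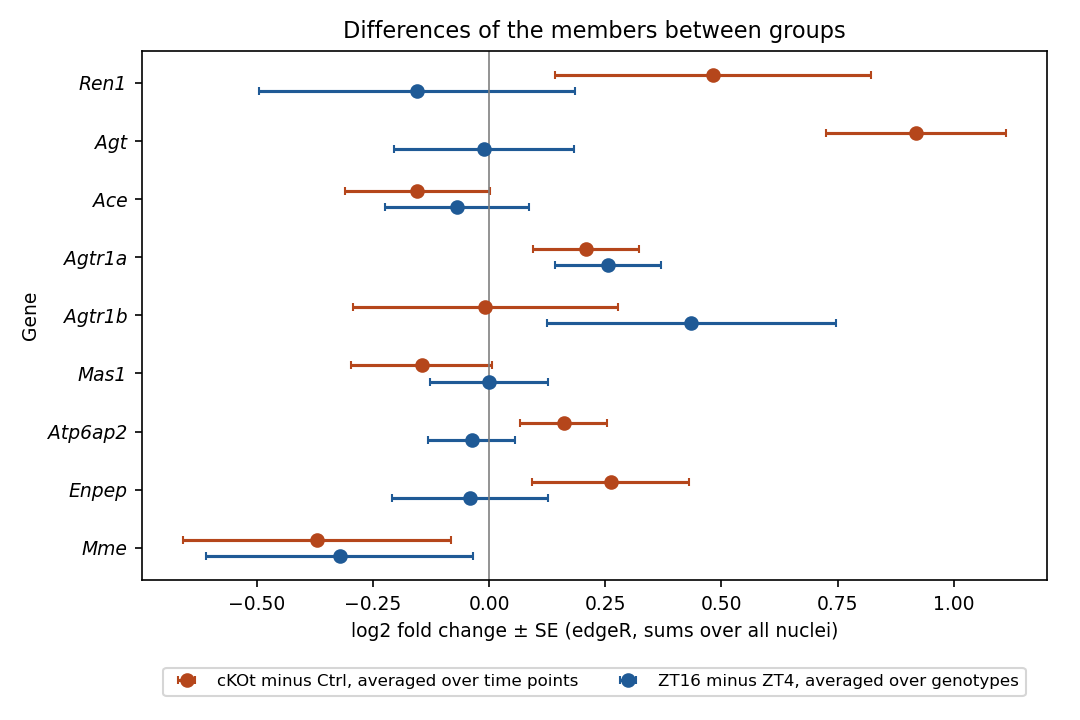
Log2 fold change ± SE (edgeR) of the 9 genes in sums over all nuclei for cKOt minus Ctrl and for ZT16 minus ZT4. Agt at 0.92 ± 0.19 is the only gene more than 4 SE from 0, and no gene passed an adjusted p of 0.05.

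Within cell types, 30 of 34 held at least 1 member that could be tested. Of 133 pairs of a member and a cell type, 1 (0.752%) was called for cKOt minus Ctrl averaged over times and 18 were under an unadjusted p of 0.05. For ZT16 minus ZT4 averaged over genotypes 0 of 133 were called and 11 were under 0.05, and 0 were called in the other contrasts. Over all gene and cell type pairs, 6.8% were under an unadjusted p of 0.05 for genotype and 9.79% for time. Over all pairs of a gene and a cell type, edgeR called 0.507% for genotype over both times, 0.267% at ZT4 and 0.161% at ZT16, 0.89% for time over both genotypes, 0.392% in Ctrl and 0.137% in cKOt, and 0.0216% for the interaction. The called pair was Agtr1a in PST. Its level was 40.6 and 40.5 CPM in Ctrl ZT4, 27.8 and 32.8 in Ctrl ZT16, 55.3 and 51.6 in cKOt ZT4, and 58.6 and 59.5 in cKOt ZT16. The genotypes did not overlap at either time. The log2 fold change was 0.69 ± 0.14 (adjusted p = 0.0372 in edgeR, 0.0544 in DESeq2), in a class where 1.9% of genes were called, and at ZT16 alone it was 1.00 ± 0.20 (adjusted p = 0.0616). Leaving out each library in turn gave adjusted p-values of 0.0265 to 0.155 for Agtr1a in PST, and the call was lost without either Ctrl ZT4 library (0.133 and 0.140), without Ctrl ZT16 replicate 1 (0.155), without either cKOt ZT16 library (0.116 and 0.146) and without cKOt ZT4 replicate 1 (0.0594). The log2 fold change was 0.61 to 0.80 with any 1 library left out. In PT intermediate Agtr1a differed by 0.38 ± 0.11 (adjusted p = 0.153), with 91.9, 94.3, 83.9 and 74.0 CPM in Ctrl and 117, 102, 110 and 118 in cKOt, which did not overlap. In PCT it differed by 0.13 ± 0.15 (adjusted p = 0.886), and there the genotypes overlapped. In mesangial cells, the class with the highest level, Agtr1a differed by −0.13 ± 0.22 between genotypes (adjusted p = 0.959).

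Other pairs that did not pass the limit include Mme in MD, the salt-sensing nuclei beside the glomerulus. Mme there was at 73.8, 156, 141 and 128 CPM in the 4 ZT4 libraries and 11.1, 39.7, 48.2 and 49.0 CPM in the 4 ZT16 libraries, from 68 UMIs in all. The times did not overlap, and the log2 fold change was −1.82 ± 0.44 (adjusted p = 0.137). In aIC, where Mme was highest, it was at 696 and 836 CPM in Ctrl ZT4, 877 and 887 in Ctrl ZT16, 570 and 748 in cKOt ZT4 and 526 and 651 in cKOt ZT16. The genotypes overlapped, with a log2 fold change of −0.41 ± 0.13 (adjusted p = 0.315). Enpep in podocytes, at 890, 835, 956 and 782 CPM in Ctrl and 657, 876, 995 and 919 in cKOt, differed by −0.02 ± 0.14 between genotypes. Atp6ap2 in bIC differed by −0.05 ± 0.17. In SMC/JGC, Agtr1a differed between ZT16 and ZT4 by 0.52 ± 0.18 (unadjusted p = 0.00803, adjusted p = 0.457), with 509, 414, 552 and 504 CPM at ZT4 and 685, 723, 662 and 781 at ZT16, which did not overlap.

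Of 16 other genes of the pathway, which are mostly peptidases that form or degrade angiotensin peptides or related kinins, with the receptors Agtr2 and Mrgprd among them, 12 could be tested over all nuclei for genotype. One was called: Klk1, a kallikrein that releases kinins, was lower in cKOt, with a log2 fold change of −0.60 ± 0.11 (adjusted p = 0.0482), where 0.948% of all genes were called. The call was lost with the replicate number as a block (adjusted p = 0.0593) and without doublet-called nuclei (0.0525), with log2 fold changes of −0.60 and −0.59. Its level was 106 and 106 CPM in Ctrl ZT4, 159 and 131 in Ctrl ZT16, 57.3 and 73.2 in cKOt ZT4 and 88.1 and 107 in cKOt ZT16. Each cKOt group lay below the Ctrl group of the same time, and the genotypes overlapped at the cKOt ZT16 library with 107 CPM. The adjusted p of Klk1 lay between 0.0391 and 0.172 when 1 library was left out, and was under 0.05 only without cKOt ZT4 replicate 2. Within cell types Klk1 was called lower in cKOt over both times in DCT1, the first part of the distal convoluted tubule (−1.56 ± 0.14, adjusted p = 1.77e-07), in TAL Umod/Cdh20 (−1.10 ± 0.13, adjusted p = 1.43e-06), TAL Kcnt1/Pcsk6 (−1.03 ± 0.15), bIC (−0.84 ± 0.17) and DCT2 (−0.62 ± 0.14). The share of all genes called there was 0.698%, 0.829%, 1.19%, 0.495% and 0.532%, in this order. Klk1 was called higher at ZT16 over both genotypes in DCT2 (0.73 ± 0.14), TAL Umod/Cdh20 (0.68 ± 0.13), TAL Cldn16/Enox1 (0.55 ± 0.12) and TAL Kcnt1/Pcsk6 (0.53 ± 0.15), where 2.45%, 2.61%, 1.44% and 4.14% of genes were called. Klk1 has near copies in the mouse genome, so its counts are uncertain. Nln, or neurolysin, an oligopeptidase, was called lower at ZT16 over both genotypes in TAL Kcnt1/Pcsk6 (−0.63 ± 0.18, adjusted p = 0.0417). Agtr2, the type 2 receptor, had 2 UMIs in all, Cma1 had 3, Ctsg 1 and Mrgprd 6, so these genes could not be tested. For ZT16 minus ZT4 over both genotypes, 0 of 12 were called and 6 were under an unadjusted p of 0.05, as were 13.7% of all genes.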

How the data were processed

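Nuclei were sorted from frozen kidneys and sequenced with the 10x 3′ chemistry. Per the labels, the authors used bcl2fastq 2.20 and Cell Ranger 7.1.0, and Seurat 5 for their own analysis; the methods name the mm10 reference and the processing notes GRCm39, so no coordinates were taken from the files. The deposited matrices hold raw UMI counts per gene and nucleus, without normalization.

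Here, a barcode was kept as a nucleus if it had 500 genes or more, 800 UMIs or more and no more than 2% of its UMIs from mitochondrial genes. Nuclei were clustered with scanpy 1.11.5 and leidenalg 0.10.2 (2000 variable genes, 50 components, 20 neighbours, resolution 2), with the 9 members and the 16 other pathway genes, but not the renin cell genes, left out of the features. Clusters were named from fixed marker lists, and 4367 doublet calls (5.37%) were kept. Of 32285 identifiers, 31674 were matched to the GENCODE gene annotation by identifier, 41 by symbol and 570 not at all. UMI counts were summed per library over all nuclei and per cell type and tested with edgeR 4.0.16 (quasi-likelihood, TMM, 1 model of 4 groups over 8 libraries, no block). A gene was tested in a contrast if each replicate of 1 of its groups had 5 counts or more. P-values were adjusted by Benjamini-Hochberg over all protein-coding genes tested, with a limit of 0.05. Standard errors are the log2 fold change divided by the square root of F. DESeq2 1.42.0 was an alternative. Shares of nuclei were compared by exact permutation over libraries.

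The tests were tested on simulated data. Median depth was 3003.5 to 4830 UMIs per nucleus.

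Named were all members in the sums, every called pair of a member and a cell type, every called gene of the pathway and renin cell lists, the 3 genes most alike to each member, Arntl and the markers of the leading cell types. A few genes that this rule names are not reported here. The members and gene lists were chosen with earlier results of these data known.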

Additional observations from a re-analysis of the deposited data

How the results depend on the processing

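No member was called in the sums under the main settings or under most alternatives. DESeq2 called 1 at ZT4 and 1 over both times for genotype, and without the filter on low counts 1 was called over both times, which in each case was Agt (without the filter, 1.21% of all genes were called there). The adjusted p of Agt over both times was 0.0865 to 0.275 with 1 library left out, and 0.0038 to 0.275 over all alternatives. Of pairs of a member and a cell type, no filter gave 2 calls for time in Ctrl, 2 over both genotypes and 1 in cKOt, and 2 for genotype at ZT16, 2 at ZT4 and 7 over both times, out of 272 pairs each. Over all gene and cell type pairs that setting called 0.754%, 1.32% and 0.465% for these times and 0.451%, 0.539% and 0.864% for these genotype contrasts, where 7 pairs with a member are 2.57% and 2 are 0.735%. Lower clustering resolution gave 2 of 129 over both times (1.55%, against 0.547% of all pairs), one of them Agt in PT intermediate. With 1 library left out, 0 to 1 pairs were called for time in Ctrl and for genotype at each time and over both.

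Of the other pathway genes, DESeq2 called 1 for time in Ctrl, 1 for time over both genotypes, 1 for genotype at ZT4 and 2 over both times, where it called 1.44%, 3.18%, 2.16% and 2.63% of all genes. No filter gave 1 for time over both genotypes (1.1% of all genes), and for genotype over both times 0 were called without doublet-called nuclei (adjusted p of Klk1 0.0525) and 0 to 1 with 1 library left out. At lower resolution Agtr1a was highest in SMC/JGC at 840 CPM and Agtr1b at 42.2 CPM. With a limit of 5 Ren1 UMIs, the share of Ren1-rich nuclei differed by −1.66 per 10000 between times.

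Small differences changed sign. Agt between times became 4.1e-05 over all non-mitochondrial genes and 0.0025 without doublets, Agtr1b between genotypes 0.0020 over all non-mitochondrial genes, and Mas1 between times −0.00037 with the replicate block. With 1 library left out, the difference between times ranged from −0.58 to 0.10 for Ren1, −0.19 to 0.13 for Agt, −0.20 to 0.084 for Ace, −0.083 to 0.10 for Mas1, −0.091 to 0.019 for Atp6ap2, −0.20 to 0.17 for Enpep and −0.56 to 0.041 for Mme. Agtr1b between genotypes ranged from −0.22 to 0.24, and Agtr1a in PCT from −0.049 to 0.27. Between times the share of SMC/JGC nuclei ranged from −8.43 to 3.84 and that of Ren1-rich nuclei from −0.421 to 1.18 per 10000. The causes of these changes were not tested.

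The labels do not say that a replicate number joins mice. Deviations of same-numbered libraries correlated at 0.279 between the genotypes at ZT4 and at 0.286 between them at ZT16. Across times they correlated at 0.127 between the cKOt groups and at −0.188, −0.0831 and −0.190 in the other pairs of groups. The main model did not take the numbers as pairs, and the replicate block joined equal numbers over both times. A pairing of same-numbered Ctrl and cKOt mice within each time point was not tested. With the replicate block, Klk1 was no longer called over both times (adjusted p 0.0593, 0 of the other pathway genes) and Agtr1a in PST was (0.0412), while Mme in sums was −0.40 between genotypes (adjusted p 0.534).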

Other observations

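Clusters that no marker list named also held members. A cluster of 2731 nuclei, with its highest marker scores for PST and PCT, had a Mas1 level of 9.43 CPM, Agtr1a at 138 CPM, Enpep at 89.5 CPM and Ace at 19.8 CPM. Another, of 913 nuclei, had Mme at 135 CPM and Enpep at 64.8 CPM. In one of 371 nuclei, Mme was at 199 CPM and Enpep at 139 CPM. Atp6ap2 stood at 96.3 CPM in a cluster of 754 nuclei.

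Over the 34 cell types the pattern of Ren1 correlated with that of Agtr1b (Pearson r = 0.83) and of Agtr1a (0.62), and Agtr1a with Agtr1b (0.75). The cell types share libraries, and in SMC/JGC 54 of the 62 Agtr1b UMIs lay in nuclei with 0 Ren1 UMIs, which were 424 of the 517 nuclei.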
